A study of Homo sapiens with 12 samples.

Results

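This account compares untreated HCC1937 cells with untreated MDA-MB-231 cells by RNA sequencing. Both are established human lines of triple-negative breast cancer, the class without estrogen receptor, progesterone receptor or amplified HER2. The comparison was taken by sample label and not by any measured value: it sets the 3 HCC1937 control libraries (E25, E26 and E27) against the 3 MDA-MB-231 control libraries (E1, E2 and E3), which are 6 of the 12 libraries of the study. All 19516 genes of the count table that carry a symbol were included, and 13834 had enough reads to be tested. The other 6 libraries come from cells that received a plant extract and are used here to look up the line markers once more and in 1 alternative fit to all 12 libraries. The dose of extract was higher in MDA-MB-231 than in HCC1937.

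The 6 libraries were labelled as wild-type epithelial cells and as controls at 72 h. MDA-MB-231 was kept in DMEM and HCC1937 in RPMI 1640, both with fetal bovine serum and antibiotics, so line and medium cannot be told apart. Each class of tumour is represented by 1 line. The labels do not say whether the libraries of a line came from separate cultures, so the p-values reflect the spread among these 6 libraries alone, and that spread may be technical.

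As background, epithelial cells hold together through E-cadherin junctions, desmosomes and tight junctions and carry keratin filaments. In an epithelial-mesenchymal transition these parts are lost, vimentin filaments and matrix proteins take their place, and transcription factors of the ZEB, SNAIL and TWIST families bind E-box letters in epithelial promoters and repress them. HCC1937 is usually placed among basal-like lines, which keep epithelial junctions and basal keratins, and MDA-MB-231 among mesenchymal lines, which do not. HCC1937 is also known for the loss of BRCA1 function.

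The control libraries held 16170346 to 26212059 counts, and each had reads in 14860 to 15159 genes. Levels are given as CPM, that is counts relative to the TMM-adjusted library total, and 3 counts in 1 library were worth 0.111 to 0.191 CPM. The libraries of a line had Spearman correlations of 0.997 to 0.998 across genes, against 0.762 to 0.765 between the lines. Replicates nevertheless differed by more than counting noise, with a mean chi-square per gene of 2.21 to 4.33 at 1 degree of freedom. Mitochondrial genes took 2.76 to 2.87% of counts in MDA-MB-231 and 3.54 to 3.69% in HCC1937. Transcript length and GC content explained 3.85% of the variance of the log2 fold changes across 13758 genes, which are not independent replicates.

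The lines differed at most genes. With edgeR's quasi-likelihood test and a Benjamini-Hochberg adjusted p under 0.05, 6136 genes (44.4% of those tested) were higher in HCC1937 and 6131 (44.3%) lower, and 1567 were not called. At 2-fold or more, 3186 genes (23%) were higher and 3232 (23.4%) lower. A call in itself therefore says little about a gene here, and the gene groups below are counted mainly at 2-fold or more and read against 23% and 23.4%. TMM takes most genes as unchanged, so each value is relative to the other genes of its library.

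**Figure D1:**
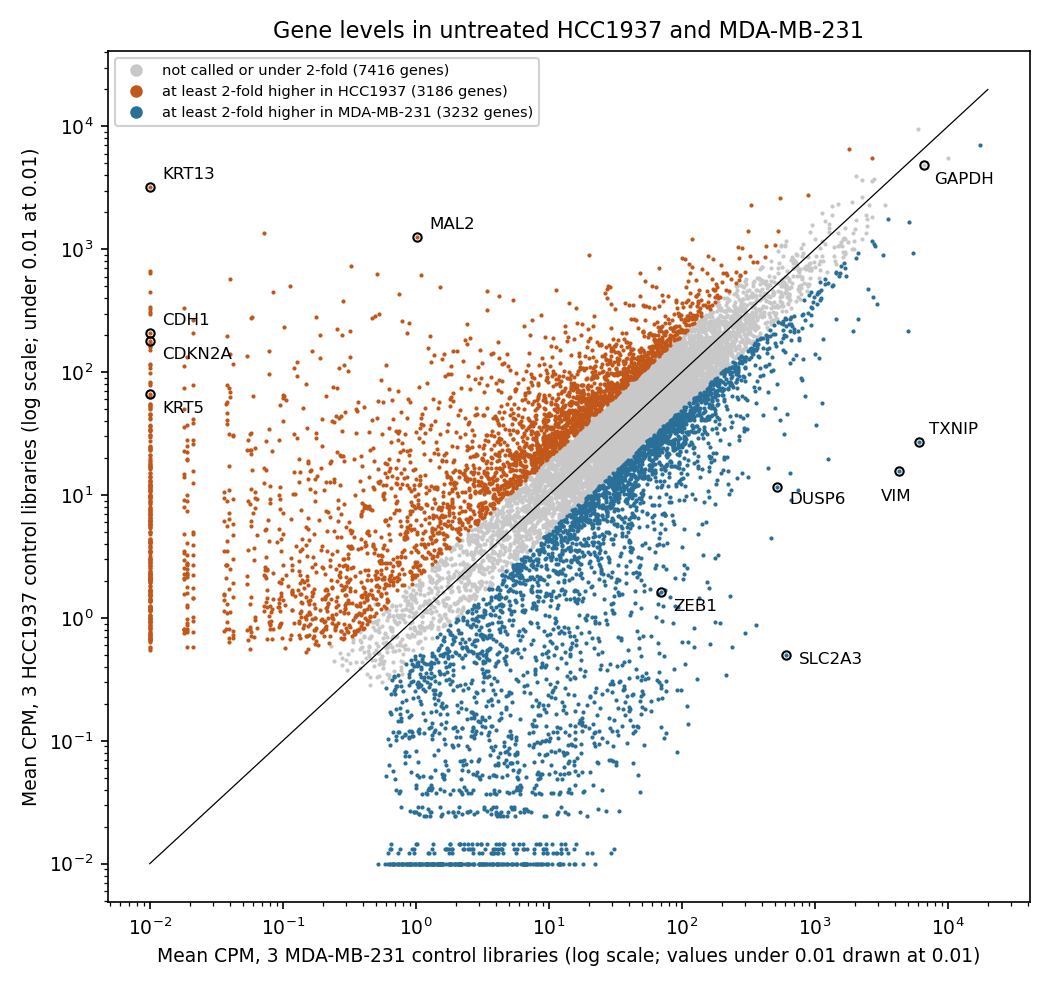
Mean level of each of the 13834 tested genes in MDA-MB-231 (x axis) and HCC1937 (y axis) control libraries, in CPM on log axes, with 1 point per gene and the diagonal marking equal levels. The 3186 genes at least 2-fold higher in HCC1937 are orange and the 3232 at least 2-fold lower are blue; KRT13, CDH1, CDKN2A and KRT5 lie on the left edge, with no reads in MDA-MB-231.

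The 5 markers given with the comparison separated the lines in every library. CDH1 (Entrez 999; chromosome 16, 68737292 to 68835537), which encodes the junction protein E-cadherin, had 0 reads in all 3 MDA-MB-231 libraries and 211, 214 and 202 CPM in E25, E26 and E27. Against a floor of 3 reads over the group this was at least 3595-fold higher in HCC1937 (edgeR adjusted p = 1.45e-28). Such floors, and the intervals given for genes with 1 to 3 reads, cover counting error only. KRT5 (Entrez 3852; chromosome 12, 52514575 to 52520394), the type II keratin of basal epithelial cells, had 0 reads in MDA-MB-231 and 67.2, 67.2 and 64.3 CPM in HCC1937, at least 1139-fold higher (adjusted p = 8.61e-25). CDKN2A (Entrez 1029; chromosome 9, 21967752 to 21995324) encodes the cell cycle inhibitor p16INK4A and, in another reading frame, p14ARF. It too had 0 reads in MDA-MB-231 and stood at 189.7, 174 and 178 CPM in HCC1937, at least 3101-fold higher (adjusted p = 7.88e-28). So these 3 genes were read in one line and in no library of the other.

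MAL2 (Entrez 114569; chromosome 8, 119208363 to 119245673), a membrane protein of apical transport in polarised epithelia, had 1.14, 1.21 and 0.706 CPM in E1, E2 and E3 and 1231, 1252 and 1301 CPM in E25, E26 and E27. Its log2 fold change was 10.28 ± 0.08 (SE), adjusted p = 1.02e-33, or 1244-fold higher in HCC1937. VIM (Entrez 7431; chromosome 10, 17228241 to 17237593), the intermediate filament vimentin, had 4454, 4289.6 and 4213 CPM in MDA-MB-231 and 14.6, 15.9 and 16.3 CPM in HCC1937. Its log2 fold change was -8.11 ± 0.05 (SE), adjusted p = 9.17e-36, or 276-fold lower in HCC1937. The groups overlapped for none of the 5 genes. In the extract libraries, where dose differed along with line and medium, each marker was on the same side again. CDH1 was at 0 CPM in the 3 libraries of MDA-MB-231 and at 104.0 to 110.1 CPM in those of HCC1937. VIM was at 3056 to 4988 CPM against 2.24 to 2.82 CPM. Both lines carry the label epithelial cell, and the label holds only in part for MDA-MB-231, where CDH1 and KRT5 were at 0 reads while the simple keratin KRT8 stood at 546 ± 22.1 CPM (SD, n = 3).

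**Figure D2:**
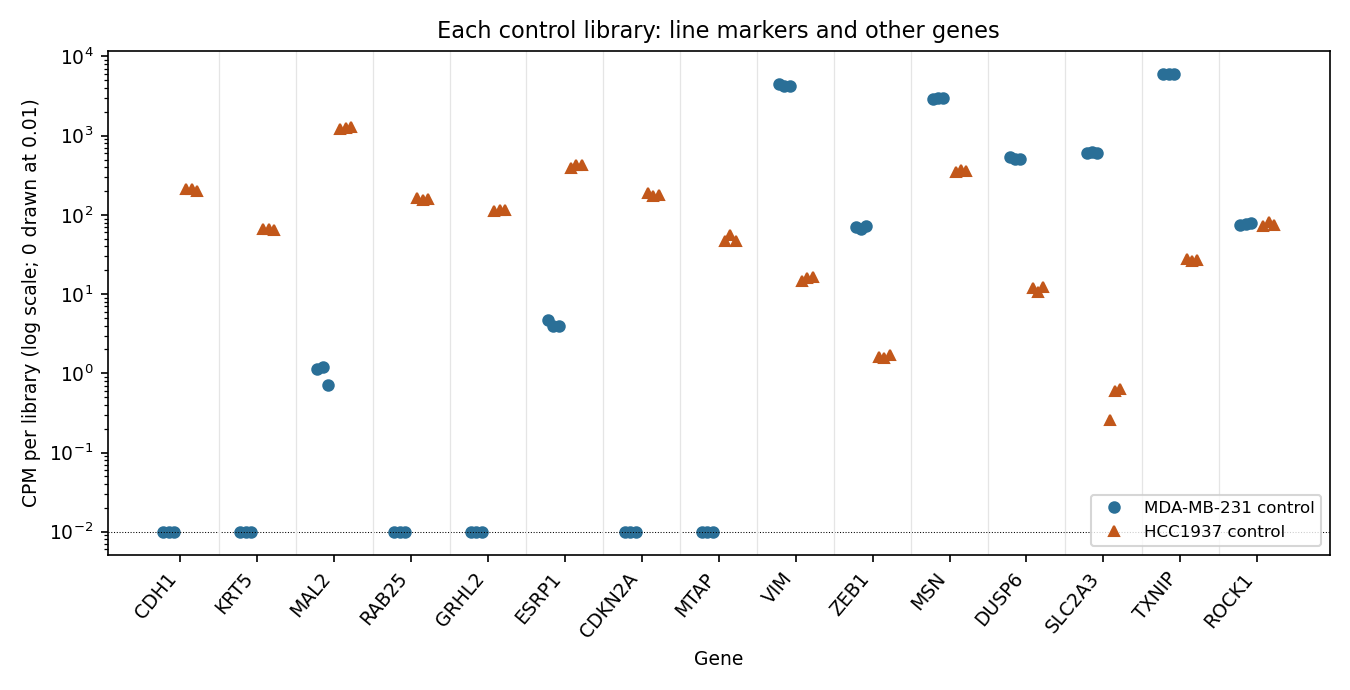
Level of 15 genes in each of the 6 control libraries, in CPM on a log axis, with values of 0 drawn at 0.01; circles are MDA-MB-231 and triangles HCC1937. The 3 libraries of a line lie close together, and the lines are apart at each gene except ROCK1, with CDH1, KRT5, RAB25, GRHL2, CDKN2A and MTAP at 0 reads in MDA-MB-231.

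The letters CACCTG and CAGGTG, which are the same E-box read on either strand, are those that ZEB and SNAIL factors are known to bind. They were searched in the 250 bases before the start of each gene in the RefSeq promoter table (GRCh38.p14). At least 1 was found in 17.5% of all 27305 promoters of the table and in 16.3% of the 11226 that belong to a tested gene. Of the 145 genes with at most 3 reads in MDA-MB-231 and at least 10 CPM in HCC1937, 98 had a promoter in the table, and 41 of these (41.8%) held the letters. Of the 52 genes with the opposite pattern, 39 had a promoter and 7 (17.9%) held them. The share was 21.2% among genes at least 2-fold higher in HCC1937 and 14.1% among those at least 2-fold lower. A related palindrome, CAGCTG, was also more frequent among genes silent in MDA-MB-231 (28.6% against 12.7% of tested genes), while CACGTG was less frequent (3.06% against 8.76%). The letters CATCTG or CAGATG differed little (10.2% against 8.14%). Promoters of genes silent in MDA-MB-231 also held fewer CpG pairs than those of tested genes, with a median of 10 in 250 bases against 21. The median was 11 for all promoters of the table, close to that 10, and 16 for genes silent in HCC1937. These are counts of letters, with no test, and a match is not a bound site.

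Shown here are the 250 bases before the start of 4 epithelial genes that hold these letters and of VIM, which holds none, 5′ to 3′ on the strand of the gene, with each match in capitals. CRB3 is on chr19:6464021-6464270 (plus strand), RAB17 on chr2:237590735-237590984 (minus), RAB25 on chr1:156060910-156061159 (plus), KRT5 on chr12:52520395-52520644 (minus) and VIM on chr10:17227991-17228240 (plus). The 4 epithelial genes were picked because they hold matches, and RAB17 was chosen for display after its values were seen. They do not stand for all: of the 24 junction and polarity genes tested 12 had a promoter in the table, and 5 of these (41.7%) held the letters. CDKN2A and KLK10, both with 0 reads in MDA-MB-231, held none, and ZEB1, which was lower in HCC1937, held 1. The promoter of CDH1 was not analysed here.
CRB3: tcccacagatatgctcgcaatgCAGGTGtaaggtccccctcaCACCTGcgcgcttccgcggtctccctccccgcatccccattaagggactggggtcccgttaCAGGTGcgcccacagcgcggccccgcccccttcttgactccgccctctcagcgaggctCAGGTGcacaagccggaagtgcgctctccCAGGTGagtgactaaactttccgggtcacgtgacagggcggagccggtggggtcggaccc
RAB17: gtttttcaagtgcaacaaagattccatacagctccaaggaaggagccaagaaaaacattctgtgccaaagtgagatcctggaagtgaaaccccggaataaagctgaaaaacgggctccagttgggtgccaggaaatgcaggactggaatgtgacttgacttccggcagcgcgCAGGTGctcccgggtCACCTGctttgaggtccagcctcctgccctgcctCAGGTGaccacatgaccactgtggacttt
RAB25: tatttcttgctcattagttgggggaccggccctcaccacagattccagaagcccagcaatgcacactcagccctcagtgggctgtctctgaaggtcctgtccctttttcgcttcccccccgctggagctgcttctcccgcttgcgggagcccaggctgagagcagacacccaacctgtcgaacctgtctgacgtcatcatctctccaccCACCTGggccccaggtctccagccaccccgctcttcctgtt
KRT5: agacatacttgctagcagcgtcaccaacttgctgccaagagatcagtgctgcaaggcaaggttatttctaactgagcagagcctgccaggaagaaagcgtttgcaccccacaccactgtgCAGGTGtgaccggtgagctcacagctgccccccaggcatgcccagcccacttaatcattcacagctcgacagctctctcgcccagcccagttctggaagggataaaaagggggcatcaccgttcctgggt
VIM: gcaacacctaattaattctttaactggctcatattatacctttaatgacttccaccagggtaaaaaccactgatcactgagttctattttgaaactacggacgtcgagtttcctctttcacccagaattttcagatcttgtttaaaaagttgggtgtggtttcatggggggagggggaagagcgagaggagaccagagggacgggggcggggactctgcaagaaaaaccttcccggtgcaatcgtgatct
CRB3, an apical polarity protein, held 5 matches, and RAB17, a small GTPase of apical sorting, held 3. RAB25, a small GTPase of recycling endosomes in epithelia, and KRT5 held 1 each. In expression, CRB3 stood at 0.0944 ± 0.120 against 28.0 ± 1.69 CPM, where in every such pair MDA-MB-231 comes first and ± is the SD over 3 libraries. RAB17 had 2 reads in all in MDA-MB-231 and 10.9 ± 1.30 CPM in HCC1937, a read ratio of 280.3 (95% counting interval 77.3 to 2318). RAB25 had 0 reads in MDA-MB-231 and 164, 156 and 161 CPM in HCC1937, at least 2754-fold higher. All 3 were thus close to absent from MDA-MB-231 and read in every HCC1937 library.

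The parts of epithelial junctions were higher in HCC1937 almost throughout. Of 24 genes of junctions and polarity, all 24 were called higher and 23 were at least 2-fold higher (95.8%, against 23% of tested genes), with a median log2 fold change of 4.36. ST14, the membrane protease matriptase, had 0.916, 1.78 and 0.597 CPM in E1, E2 and E3 and 631, 619 and 614 CPM in E25, E26 and E27 (log2 fold change 9.18 ± 0.09 SE, adjusted p = 2.75e-31). Its inhibitor SPINT1 went with it (2.57 ± 0.848 against 190.2 ± 1.78 CPM), as did the protease it activates, PRSS8 (0.249 ± 0.0514 against 44.4 ± 0.811 CPM). P-cadherin, CDH3, stood at 1.29 ± 0.415 against 197 ± 5.33 CPM, and the adhesion protein EPCAM at 13.9 ± 1.5 against 195 ± 8.76 CPM. The tight junction scaffold TJP3 was low in MDA-MB-231 (0.600 ± 0.0288 against 114 ± 5.74 CPM). The claudin CLDN4 was the member under 2-fold (143 ± 6.05 against 215 ± 4.93 CPM, log2 fold change 0.59 ± 0.04 SE, adjusted p = 5.85e-13), so MDA-MB-231 did not lack every tight junction transcript.

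Among 12 desmosome genes 11 were called higher and 1 lower, 9 of them at least 2-fold higher, with a median of 2.32. JUP, plakoglobin, which links desmosomal cadherins to the plaque, had 27.6, 26.5 and 29.8 CPM in MDA-MB-231 and 506, 499 and 491 CPM in HCC1937 (log2 fold change 4.15 ± 0.05 SE, adjusted p = 4.93e-30). PPL, periplakin, stood at 0.783 ± 0.223 against 261 ± 13.7 CPM, and the cadherin DSC3 at 0.0998 ± 0.0957 against 65.3 ± 3.47 CPM. The keratinocyte desmoglein DSG3 had 0 reads in MDA-MB-231 and was at least 241-fold higher in HCC1937. The exception was DSG2, the desmoglein of simple epithelia, which was lower in HCC1937 (235 ± 10.1 against 169 ± 8.04 CPM, log2 fold change -0.47 ± 0.04 SE, adjusted p = 1.33e-10). Hemidesmosome and basal laminin genes were split. Of 9, 5 were called higher and 4 lower, with a median of 1.65, which became 0.73 with an offset for transcript length and GC content. The integrin subunit ITGB4 (53.6 ± 0.992 against 345 ± 13.3 CPM) was higher, while its partner ITGA6 (435 ± 14.9 against 235 ± 7.13 CPM) and the laminin chain LAMB3 (498 ± 6.54 against 290.4 ± 2.00 CPM) were lower.

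Keratins of stratified epithelium were mostly at or near 0 in MDA-MB-231 and high in HCC1937. Of 11 tested, 9 were at least 2-fold higher (81.8%), KRT81 was lower and KRT86 was not called, with a median of 12.0 (9.19 when genes without reads are placed at their lower bound). Of the 11, 5 had 0 reads in 1 line, so they passed the filter only through the other and had to differ. The share of 81.8% describes what was read. KRT13, a keratin of non-cornified stratified epithelium, had 0 reads in MDA-MB-231 and 3348, 3178 and 3145 CPM in HCC1937, at least 55370.0-fold higher (adjusted p = 1.22e-33). Per kilobase of transcript it stood at 1897 CPM, against 2594 CPM per kilobase for GAPDH in the same line. KRT17 (0.113 ± 0.115 against 500.1 ± 16.8 CPM), KRT16 and KRT4 were also near 0 in MDA-MB-231, where KRT16 and KRT4 had 1 read each and HCC1937 held 112 ± 1.82 and 209.5 ± 7.24 CPM. KRT15, a basal keratin, was present in both lines (27.4 ± 0.920 against 404 ± 8.89 CPM). KRT14, the usual partner of KRT5, had 0 reads in MDA-MB-231 and only 3.42 ± 0.405 CPM in HCC1937. KRT6A and KRT6B are near-identical copies, so their separate values (33.9 ± 0.733 and 2.33 ± 0.253 CPM in HCC1937) are uncertain.

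Most keratins of simple epithelium were present in both lines, and the group was higher in HCC1937. All 6 keratins were called at 2-fold or more, with a median of 2.32. KRT23 was close to absent from MDA-MB-231, in a run of 14 neighbouring genes with 2 reads there in all. KRT8 had 564, 552 and 521 CPM in E1, E2 and E3 and 2673, 2549.6 and 2563 CPM in E25, E26 and E27 (log2 fold change 2.25 ± 0.04 SE, adjusted p = 4.85e-27). Its partner KRT18 stood at 316 ± 10.5 against 1417 ± 30.1 CPM and KRT7 at 119 ± 4.79 against 1220.1 ± 47.7 CPM. MDA-MB-231 therefore kept the transcripts of KRT8, KRT18 and KRT7, and KRT19, a luminal keratin, was low in both lines (1.10 ± 0.720 against 5.67 ± 0.241 CPM).

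Splicing factors that define epithelial exons followed the junction genes. ESRP1, the main epithelial splicing regulator, had 4.75, 3.94 and 3.91 CPM in MDA-MB-231 and 390.4, 423 and 429.5 CPM in HCC1937 (log2 fold change 6.62 ± 0.07 SE, adjusted p = 6.69e-31). Its relative ESRP2 stood at 0.671 ± 0.337 against 41.3 ± 0.518 CPM and RBM47 at 3.15 ± 0.185 against 118 ± 4.15 CPM. Of the 7 splicing genes listed these 3 were at least 2-fold higher and none was 2-fold lower. QKI, which promotes mesenchymal exons, was close in both lines (176 ± 4.13 against 159 ± 7.77 CPM); it was called lower in HCC1937 with a log2 fold change of -0.15 ± 0.04 (SE), adjusted p = 0.00244, but the sign turned with the length and GC offset (0.046). Isoforms were not analysed here.

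Of 9 transcription factors linked to the transition, 6 were tested, and the factors did not all point one way. ZEB1 (Entrez 6935; chromosome 10, 31318417 to 31529804), a repressor of CDH1, had 70.6, 66.2 and 72.2 CPM in MDA-MB-231 and 1.61, 1.55 and 1.70 CPM in HCC1937. Its log2 fold change was -5.42 ± 0.10 (SE), adjusted p = 3.33e-26, or 42.9-fold lower in HCC1937. SNAI1 stood at 25.5 ± 2.41 against 2.28 ± 0.427 CPM (log2 fold change -3.47 ± 0.13 SE, adjusted p = 4.10e-19). ZEB2 was lower by less (6.77 ± 0.713 against 4.62 ± 0.520 CPM), and SNAI2 was higher in HCC1937 (8.42 ± 0.410 against 12.7 ± 0.342 CPM), as was FOXC2, with 1 read in MDA-MB-231 and 2.30 ± 0.381 CPM in HCC1937. TWIST1 and TWIST2 had 0 reads in both lines. The list's median was -2.01, or -0.55 in the fit that asks for at least 1 CPM in 3 libraries, where fewer of its members were tested.

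Mesenchymal markers were split as well: of 23 tested, 11 were at least 2-fold lower in HCC1937 (47.8%, against 23.4% of tested genes) and 7 at least 2-fold higher (30.4%). The median was -0.62, or -0.41 with the length and GC offset. Besides VIM, the cytoskeletal linker MSN, moesin, had 2907, 2956 and 3005 CPM in MDA-MB-231 and 345, 367 and 363 CPM in HCC1937 (log2 fold change -3.04 ± 0.04 SE, adjusted p = 5.56e-30). Fibronectin, FN1, stood at 499 ± 33.2 against 50.9 ± 1.29 CPM and the collagen cross-linking enzyme LOX at 71.0 ± 1.72 against 0.943 ± 0.340 CPM. The receptor tyrosine kinase AXL, often cited with mesenchymal lines, stood at 574 ± 4.46 against 263 ± 3.99 CPM, so HCC1937 kept a sizeable level. In the other direction HCC1937 had more caveolin, CAV1 (179 ± 4.84 against 464 ± 14.3 CPM), more of the matrix protein SPARC (9.99 ± 0.392 against 44.0 ± 1.66 CPM), more S100A4 (2.06 ± 0.605 against 45.1 ± 2.03 CPM) and more of the proteoglycan SPOCK1 (4.87 ± 0.763 against 140.2 ± 8.54 CPM). N-cadherin, CDH2, was not tested, with 17 reads in MDA-MB-231 and 7 in HCC1937.

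Most genes of the luminal list were higher in HCC1937. The list also holds general epithelial factors such as GRHL2, so its count does not by itself make HCC1937 luminal. Of 18 tested, 16 were at least 2-fold higher (88.9%) and 2 at least 2-fold lower, with a median of 3.83. GRHL2, a factor that maintains epithelial gene expression, had 0 reads in MDA-MB-231 and 113, 116 and 115 CPM in HCC1937, at least 1974-fold higher. The related epithelial factors ELF3 (5.37 ± 0.379 against 388 ± 6.32 CPM) and EHF (2.36 ± 0.684 against 182 ± 8.18 CPM) followed, and so did OVOL1, with 3 reads in MDA-MB-231 and 23.4 ± 1.70 CPM in HCC1937. The receptors that define the tumour class were low. ESR1, the estrogen receptor, stood at 0.446 ± 0.139 against 8.10 ± 0.716 CPM and PGR, the progesterone receptor, at 3.33 ± 0.317 CPM with 1 read in HCC1937. ERBB2, which encodes HER2, was present without being among the high genes (59.6 ± 0.943 against 164 ± 4.90 CPM). Its partner ERBB3 stood at 8.35 ± 0.508 against 82.2 ± 3.02 CPM, and the luminal factors GATA3 and FOXA1 at 5.11 ± 0.154 against 31.3 ± 1.32 CPM and 3.42 ± 0.489 against 30.6 ± 1.11 CPM.

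The basal factors gave a mixed picture, with 4 of 11 tested at least 2-fold higher in HCC1937, 3 at least 2-fold lower and a median of 0.37. TRIM29, a basal epithelial protein, had 0.114, 0.191 and 0 CPM in MDA-MB-231 and 238, 228 and 239 CPM in HCC1937 (log2 fold change 11.16 ± 0.13 SE, adjusted p = 5.14e-30). The basal factor KLF5 stood at 27.4 ± 1.78 against 475 ± 15.3 CPM and TP63, the p63 gene, had 3 reads in MDA-MB-231 and 7.79 ± 0.413 CPM in HCC1937. EGFR was close in both lines (173 ± 6.36 against 223 ± 6.45 CPM), FOXC1 slightly lower in HCC1937 (23.5 ± 1.72 against 19.2 ± 1.01 CPM), and SOX9 lower (153 ± 4.52 against 61.7 ± 0.905 CPM). SOX10, another basal-like marker, was too low to test, with 2 reads in MDA-MB-231 and 13 in HCC1937.

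**Figure D3:**
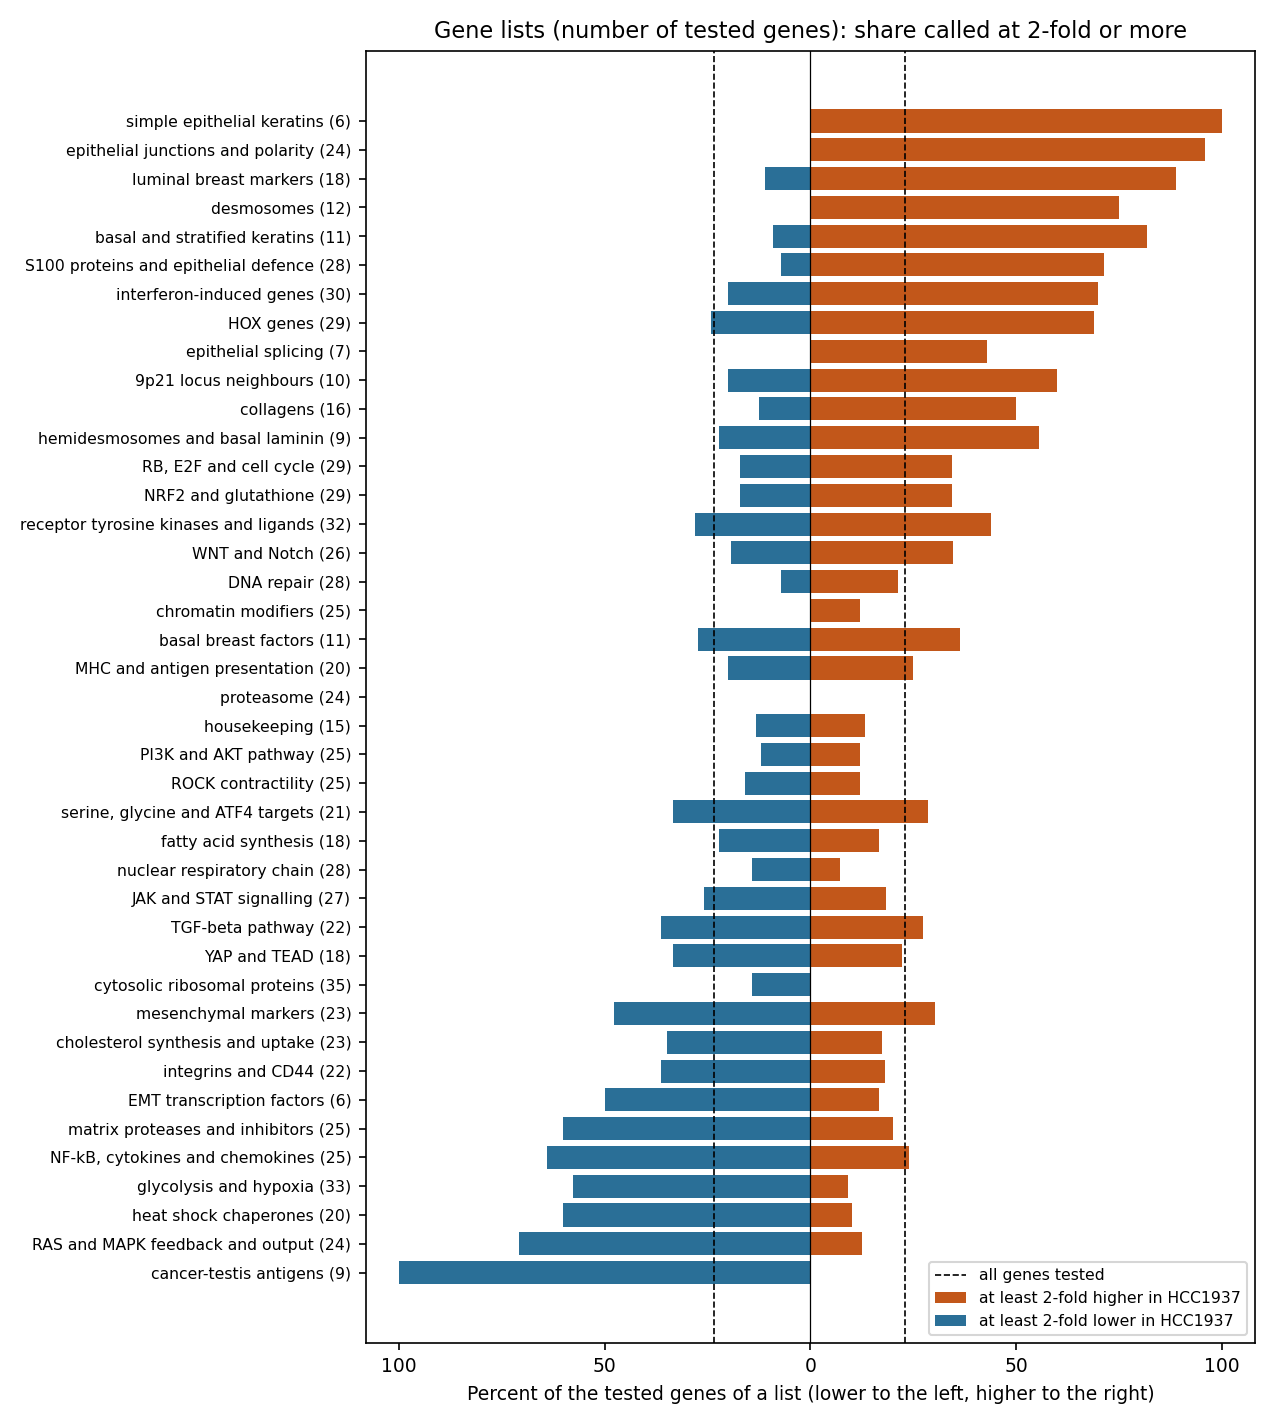
Share of the tested genes of each list shown (number in brackets) that were at least 2-fold higher (orange, to the right) or lower (blue, to the left) in HCC1937, in percent; each list shown has at least 6 tested genes. Dashed lines mark 23% higher and 23.4% lower among all tested genes; epithelial lists lie at the top and cancer-testis antigens, RAS and MAPK output and chaperones at the bottom.

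Matrix genes divided by class. Proteases and their inhibitors were mostly lower in HCC1937, with 15 of 25 at least 2-fold lower, 5 at least 2-fold higher and a median of -1.40. The urokinase PLAU had 376, 369 and 366 CPM in MDA-MB-231 and 86.7, 82.7 and 85.0 CPM in HCC1937 (log2 fold change -2.13 ± 0.04 SE, adjusted p = 1.23e-25). Its receptor PLAUR (153 ± 5.71 against 41.0 ± 1.75 CPM) and the membrane collagenase MMP14 (379 ± 3.64 against 74.5 ± 2.89 CPM) were lower with it. Against this direction, SERPINB5, maspin, was near 0 in MDA-MB-231 (2 reads) and stood at 74.0 ± 3.82 CPM in HCC1937, a read ratio of 1910.0 (95% counting interval 529 to 15780.0). TIMP3, a metalloprotease inhibitor, was also higher (13.2 ± 0.392 against 238 ± 5.40 CPM). Collagens leaned the other way: 8 of 16 tested were at least 2-fold higher and 2 lower, with a median of 0.99. The basement membrane chains COL4A5 (29.3 ± 1.88 against 159 ± 5.76 CPM) and COL4A6 (1.75 ± 0.572 against 38.1 ± 0.808 CPM) and COL6A1 (91.7 ± 2.22 against 336 ± 14.1 CPM) were higher, and the membrane collagen COL13A1 was lower (177 ± 1.94 against 8.40 ± 0.291 CPM).

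Of 22 integrins and partners 8 were at least 2-fold lower in HCC1937 (36.4%) and 4 at least 2-fold higher (18.2%), with a median of -0.89. The fibronectin receptor subunit ITGA5 had 338, 353 and 351 CPM in MDA-MB-231 and 74.9, 74.9 and 76.2 CPM in HCC1937 (log2 fold change -2.20 ± 0.04 SE, adjusted p = 8.51e-26), and ITGB3 stood at 57.4 ± 3.83 against 1.72 ± 0.291 CPM. Talin, TLN1, which couples integrins to actin, stood at 767 ± 28.8 against 183 ± 8.07 CPM. The subunits ITGB8 and ITGB6 ran opposite: ITGB8 stood at 0.913 ± 0.313 against 56.8 ± 2.80 CPM, and ITGB6 had 1 read in MDA-MB-231 and 38.5 ± 2.13 CPM in HCC1937. Of the hemidesmosome subunits given above, ITGB4 was higher in HCC1937 and ITGA6 lower, so integrins of epithelia went both ways. Among genes of ROCK contractility most differences were small, with 3 of 25 at least 2-fold higher and 4 lower. The myosin light chain MYL9 was the largest of them (53.9 ± 4.06 against 0.359 ± 0.0326 CPM, log2 fold change -7.21 ± 0.14 SE, adjusted p = 1.76e-25).

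Of the 4 genes in the study's title, JAK2, ROCK2 and PIK3CA differed between the untreated lines and ROCK1 was not called. ROCK1, a kinase that drives actomyosin contraction, had 75.5, 77.3 and 79.3 CPM in E1, E2 and E3 and 73.4, 81.9 and 75.2 CPM in E25, E26 and E27. The groups overlapped (log2 fold change -0.01 ± 0.05 SE, adjusted p = 0.881). Its sign turned with the offset for length and GC content, where the median of the 4 title genes went from -0.227 to 0.0134. ROCK2, its close relative, had 43.6, 44.2 and 43.0 CPM in MDA-MB-231 and 82.7, 99.5 and 96.7 CPM in HCC1937, 2.14-fold higher (log2 fold change 1.10 ± 0.06 SE, adjusted p = 4.57e-15). JAK2, a kinase of cytokine receptors, was lower in HCC1937 (7.61 ± 0.717 against 4.14 ± 0.834 CPM, log2 fold change -0.87 ± 0.16 SE, adjusted p = 1.50e-05). PIK3CA, a catalytic subunit of phosphoinositide 3-kinase, was lower too (48.6 ± 1.44 against 35.6 ± 2.27 CPM, log2 fold change -0.45 ± 0.06 SE, adjusted p = 2.71e-07), but was no longer called with the offset for length and GC content, where its log2 fold change was -0.10. Of 25 genes of the PI3K pathway 19 differed by less than 2-fold between the lines.

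Feedback regulators and other output genes of RAS and MAPK signalling were much higher in MDA-MB-231. Of 24 tested, 17 were at least 2-fold lower in HCC1937 (70.8%) and 3 at least 2-fold higher (12.5%), with a median of -1.84. DUSP6, the phosphatase that acts on ERK, had 533, 504 and 515 CPM in MDA-MB-231 and 12.0, 10.7 and 12.2 CPM in HCC1937 (log2 fold change -5.48 ± 0.05 SE, adjusted p = 1.89e-31). SPRY4, a Sprouty inhibitor of the pathway, stood at 660.5 ± 2.44 against 9.07 ± 0.463 CPM and the phosphatase DUSP5 at 552 ± 2.55 against 40.7 ± 1.91 CPM. The transcription factors EGR1 (307 ± 11.6 against 44.5 ± 3.41 CPM) and FOSL1 (231 ± 7.595 against 43.8 ± 2.90 CPM) were lower by less. BRAF itself was lower in HCC1937 by less than 2-fold (41.5 ± 2.24 against 22.6 ± 0.231 CPM). NF1, which turns RAS off, was higher in HCC1937 (34.4 ± 0.717 against 138 ± 12.98 CPM), as was the cyclin gene CCND1 (140.4 ± 2.58 against 302 ± 3.503 CPM).

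Growth factor receptors and ligands were redistributed, with 14 of 32 tested at least 2-fold higher in HCC1937 and 9 lower and a median of 0.59. FGF2, a fibroblast growth factor, had 0, 0.0636 and 0.434 CPM in MDA-MB-231 and 149, 149.7 and 148 CPM in HCC1937 (log2 fold change 9.69 ± 0.15 SE, adjusted p = 2.02e-27), and its carrier FGFBP1 had 3 reads in MDA-MB-231 against 277 ± 3.87 CPM. The collagen receptor DDR1 stood at 37.7 ± 1.68 against 365 ± 6.10 CPM while its relative DDR2 was lower (3.89 ± 0.653 against 0.324 ± 0.168 CPM). The receptor FGFR1 stood at 147 ± 7.97 against 35.9 ± 1.74 CPM and FGFR3 at 8.13 ± 0.116 against 59.9 ± 4.21 CPM, so these 2 receptors differed in opposite directions. The EGFR ligand HBEGF stood at 208 ± 5.59 against 34.2 ± 1.55 CPM, and the ERBB3 ligand NRG1 at 38.1 ± 0.797 against 1.94 ± 0.0167 CPM. The insulin-like growth factor binding proteins IGFBP3 (48.7 ± 1.76 against 646 ± 13.95 CPM) and IGFBP6 (99.9 ± 9.33 against 848 ± 37.9 CPM) were higher in HCC1937.

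CDKN2A lay in a longer stretch of chromosome 9 without reads in MDA-MB-231. There 24 neighbouring genes between 20999509 and 24545897, CDKN2A among them, had 0 reads in all 3 libraries, and 5 of these reached 1 CPM in HCC1937. MTAP, an enzyme of methionine salvage, had 46.7, 55.4 and 47.5 CPM in E25, E26 and E27 and was at least 862-fold higher. CDKN2B, which encodes p15INK4B, was at least 571-fold higher (33.3 ± 1.78 CPM in HCC1937) and the ubiquitin ligase adaptor KLHL9 at least 335-fold higher (19.4 ± 1.41 CPM). The fifth was IFNE, an epithelial interferon (4.35 ± 0.466 CPM). Most of the interferon alpha genes in the stretch were at or near 0 in HCC1937 too. The flanks were read in MDA-MB-231, with FOCAD at 2.55 ± 0.770 against 13.5 ± 0.0113 CPM and PLAA at 53.2 ± 1.57 against 31.5 ± 1.38 CPM. DNA was not measured.

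**Figure D4:**
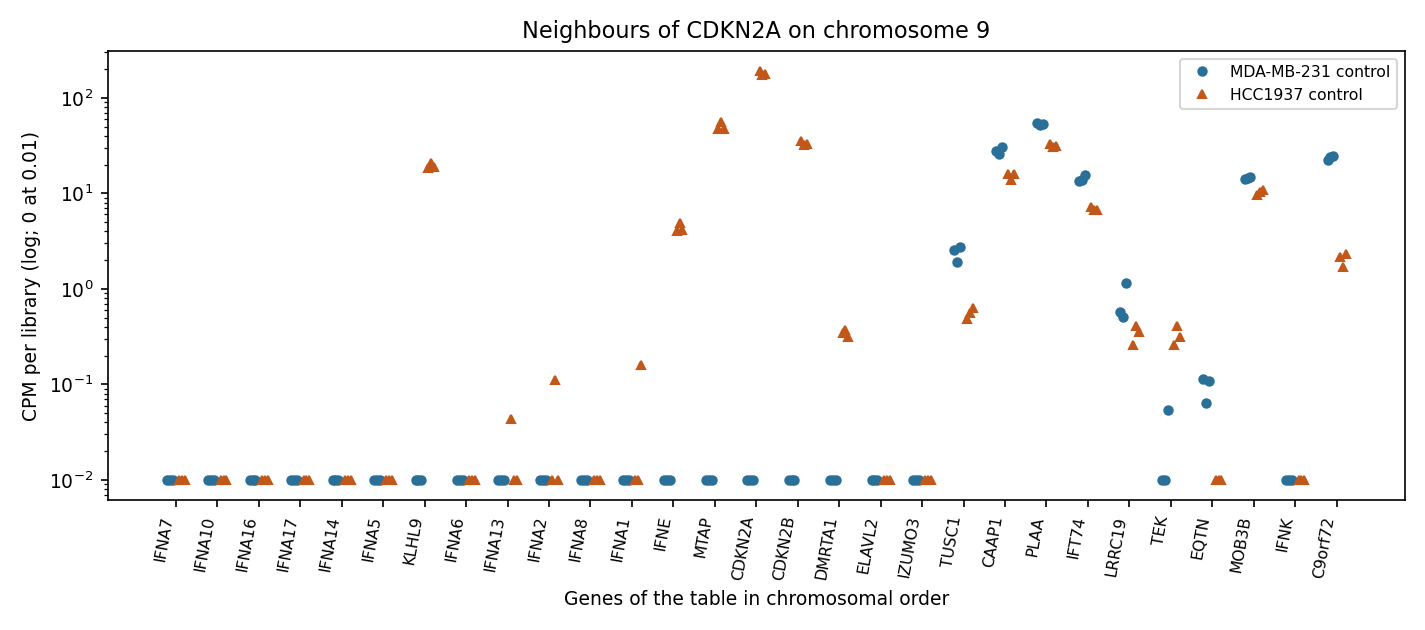
Level of neighbouring genes in chromosomal order around CDKN2A in each control library, in CPM on a log axis with 0 drawn at 0.01; circles are MDA-MB-231 and triangles HCC1937. From KLHL9 to CDKN2B all MDA-MB-231 libraries are at 0.

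Apart from CDKN2A and CDKN2B, several inhibitors of growth were lower in HCC1937. The inhibitor of cyclin-dependent kinases CDKN1A, p21, stood at 185 ± 3.72 against 43.5 ± 1.65 CPM, its relative CDKN1C, p57, at 41.1 ± 2.93 against 1.05 ± 0.0606 CPM and the stress gene GADD45A at 269 ± 7.54 against 28.0 ± 2.45 CPM. In the cell cycle list 10 of 29 were at least 2-fold higher in HCC1937 and 5 lower, with a median of 0.34. The replication clamp PCNA had 73.2, 79.4 and 72.0 CPM in MDA-MB-231 and 285, 281 and 300.3 CPM in HCC1937 (log2 fold change 1.95 ± 0.05 SE, adjusted p = 1.67e-23), and E2F2 stood at 6.58 ± 0.502 against 60.1 ± 2.32 CPM. The proliferation marker MKI67 was higher (326 ± 23.7 against 890.0 ± 62.4 CPM), whereas CDK1 (299.7 ± 5.82 against 107.7 ± 1.88 CPM) and CDK2 (193 ± 0.911 against 74.6 ± 1.26 CPM) were lower. Of the D-type cyclins, CCND2 was near absent from HCC1937 (131 ± 6.83 against 0.316 ± 0.295 CPM, log2 fold change -8.60 ± 0.14 SE, adjusted p = 6.57e-27).

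Few DNA repair and chromatin genes were at least 2-fold lower in HCC1937. Of 28 repair genes 17 were called higher and 8 lower. At 2-fold or more 6 were higher (21.4%, close to the 23% of tested genes) and 2 lower (7.14%, against 23.4%). Single repair genes differed widely. MGMT, which removes alkyl groups from guanine, had 0 reads in MDA-MB-231 and 37.4, 37.1 and 37.5 CPM in HCC1937, at least 642-fold higher. BRCA1 transcript was higher in HCC1937 (45.2 ± 1.96 against 82.4 ± 4.19 CPM), as was BRCA2 (17.5 ± 1.14 against 45.7 ± 3.63 CPM), and the kinase gene ATM was lower (145 ± 12.1 against 41.7 ± 2.18 CPM). A transcript level does not show whether a protein works. Of 25 chromatin modifiers 19 were called higher, 3 of them at 2-fold or more (12.0%), and none was 2-fold lower. EZH2, the Polycomb methyltransferase, was among the 4 called lower (113 ± 6.71 against 61.7 ± 0.927 CPM).

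Cytokines and NF-kB targets were higher in MDA-MB-231. Of 25 tested, 16 were at least 2-fold lower in HCC1937 (64.0%) and 6 at least 2-fold higher (24.0%), with a median of -1.91. CXCL8, interleukin 8, had 373, 361 and 343 CPM in MDA-MB-231 and 0.739, 1.22 and 0.672 CPM in HCC1937 (log2 fold change -8.65 ± 0.09 SE, adjusted p = 3.11e-31). The colony-stimulating factor CSF3 stood at 109 ± 4.13 against 0.191 ± 0.102 CPM, and CSF2 at 25.2 ± 2.98 CPM with 3 reads in HCC1937. Interleukin 1 alpha and beta stood at 131 ± 3.00 against 4.80 ± 0.829 CPM for IL1A and 73.6 ± 3.78 against 7.09 ± 1.08 CPM for IL1B, while their antagonist IL1RN had 0 reads in MDA-MB-231 and 9.77 ± 1.17 CPM in HCC1937. The pathway gene NFKB2 was lower in HCC1937 (166 ± 4.77 against 44.1 ± 0.974 CPM) and NFKB1 higher (45.1 ± 1.87 against 104.8 ± 2.35 CPM). IL6 ran against the list (4.09 ± 0.167 against 9.07 ± 1.11 CPM).

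Genes induced by interferon were higher in HCC1937 by a wide margin: 21 of 30 were at least 2-fold higher (70.0%) and 6 at least 2-fold lower, with a median of 1.57. MX1, an antiviral GTPase, had 1.14, 1.65 and 2.71 CPM in MDA-MB-231 and 95.2, 99.1 and 94.2 CPM in HCC1937 (log2 fold change 5.69 ± 0.11 SE, adjusted p = 3.63e-25). MX2 stood at 1.36 ± 0.367 against 60.5 ± 1.92 CPM, and the oligoadenylate synthetases OAS1 at 2.78 ± 0.566 against 88.8 ± 1.78 CPM and OAS3 at 19.4 ± 1.94 against 159 ± 5.74 CPM. The exceptions included IFITM3 (198 ± 6.86 against 97.8 ± 5.40 CPM) and the regulator IRF7 (12.4 ± 0.0945 against 0.472 ± 0.158 CPM). Antigen presentation was more even, with 5 of 20 at least 2-fold higher and 4 lower. Its activator NLRC5 was higher in HCC1937 (5.55 ± 0.709 against 73.6 ± 3.85 CPM), and CD274, which encodes PD-L1, was lower (42.4 ± 2.91 against 9.48 ± 1.38 CPM).

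Signalling by JAK and STAT, TGF-beta, WNT, Notch and YAP held differences in both directions, as did the tested genes as a whole (23% at least 2-fold higher and 23.4% lower). Of 27 JAK and STAT genes 5 were at least 2-fold higher (18.5%) and 7 lower (25.9%), the largest being the receptor LIFR (52.4 ± 3.00 against 1.67 ± 0.416 CPM, log2 fold change -4.96 ± 0.11 SE, adjusted p = 8.05e-24). The feedback inhibitor SOCS3 was also lower (103 ± 3.497 against 16.4 ± 0.532 CPM). In the TGF-beta list 6 of 22 were at least 2-fold higher (27.3%) and 8 lower (36.4%): the ligand TGFB1 (181 ± 8.00 against 35.1 ± 0.467 CPM) and the receptor TGFBR2 (239 ± 3.15 against 64.1 ± 3.65 CPM) were lower, and TGFBR1 was higher (38.2 ± 2.89 against 177 ± 9.44 CPM). SMAD4 and SMAD2, both on chromosome 18, stood at 54.4 ± 2.76 against 24.4 ± 1.43 CPM and 79.9 ± 6.05 against 32.95 ± 2.00 CPM. In the WNT and Notch list 9 of 26 were at least 2-fold higher (34.6%) and 5 lower (19.2%). The WNT antagonist SFRP1 had 0 reads in MDA-MB-231 and 170.1, 173 and 177 CPM in HCC1937, at least 2986-fold higher, and the receptor NOTCH3 stood at 2.42 ± 0.404 against 249 ± 6.97 CPM. In the YAP and TEAD list 4 of 18 were at least 2-fold higher (22.2%) and 6 lower (33.3%), and the matricellular target CCN1 stood at 1128 ± 16.3 against 56.0 ± 1.68 CPM (log2 fold change -4.33 ± 0.04 SE, adjusted p = 1.05e-31).

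Genes of glycolysis and hypoxia were lower in HCC1937, with 19 of 33 at least 2-fold lower (57.6%), 3 at least 2-fold higher (9.09%) and a median of -1.12. SLC2A3, the glucose transporter GLUT3, had 597, 619.8 and 613 CPM in MDA-MB-231 and 0.261, 0.592 and 0.633 CPM in HCC1937. Its log2 fold change was -10.22 ± 0.09 (SE), adjusted p = 6.60e-33, or 1195-fold lower in HCC1937. TXNIP, which restrains glucose uptake, stood at 6058 ± 17.6 against 26.9 ± 0.957 CPM, and its relative ARRDC4 at 44.5 ± 3.42 against 0.120 ± 0.0713 CPM. The enzymes LDHA (1713 ± 5.50 against 601 ± 14.9 CPM), PGK1 (1632 ± 10.7 against 865 ± 11.3 CPM) and ENO2 (409 ± 7.63 against 45.1 ± 1.16 CPM) were lower by less. SLC16A1, the lactate transporter MCT1, was far higher in HCC1937 (3.45 ± 1.09 against 320.0 ± 9.43 CPM, log2 fold change 6.54 ± 0.09 SE, adjusted p = 4.59e-29). Line and medium cannot be told apart for these genes either.

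Lipid and amino acid genes held single large differences within lists that were split. STARD4, a carrier of cholesterol, had 219, 207 and 221 CPM in MDA-MB-231 and 0.565, 0.111 and 0.356 CPM in HCC1937 (log2 fold change -9.32 ± 0.12 SE, adjusted p = 1.33e-29). Of 23 cholesterol genes 8 were at least 2-fold lower, among them HMGCS1 (450.4 ± 12.3 against 157 ± 3.25 CPM), and 4 at least 2-fold higher, among them SQLE (91.3 ± 4.50 against 237 ± 7.27 CPM). In fatty acid synthesis the desaturase FADS2 was lower (590.0 ± 7.05 against 31.6 ± 1.36 CPM), as was the carrier FABP5 (65.6 ± 4.49 against 0.314 ± 0.0843 CPM), while FASN (2018 ± 57.7 against 1457 ± 73.2 CPM) and SCD (1897 ± 36.8 against 2409 ± 56.7 CPM) were within 2-fold. Of 21 serine, glycine and ATF4 genes 6 were at least 2-fold higher and 7 lower. CBS, which makes cystathionine from homocysteine and serine, was near 0 in MDA-MB-231, where it had 3 reads, and stood at 135 ± 4.67 CPM in HCC1937. VLDLR, a lipoprotein receptor, showed the opposite (42.8 ± 1.98 against 0.116 ± 0.0708 CPM).

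Among 29 genes of the NRF2 and glutathione list 10 were at least 2-fold higher and 5 lower. GSTP1, a glutathione transferase, had 116, 110.3 and 110.0 CPM in MDA-MB-231 and 0.826, 0.518 and 0.554 CPM in HCC1937 (log2 fold change -7.48 ± 0.10 SE, adjusted p = 1.61e-28). ALDH1A3, a retinaldehyde dehydrogenase, ran the other way (20.1 ± 0.756 against 897 ± 7.18 CPM, log2 fold change 5.48 ± 0.05 SE, adjusted p = 1.22e-32), as did AKR1C2 (0.407 ± 0.247 against 51.8 ± 0.742 CPM). The regulators differed in opposite directions, with NFE2L2, which encodes NRF2, at 178 ± 3.21 against 66.0 ± 3.79 CPM and its inhibitor KEAP1 at 33.3 ± 0.318 against 101 ± 1.69 CPM. In the respiratory chain 22 of 28 genes were within 2-fold.

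Heat shock chaperones were lower in HCC1937, with 12 of 20 at least 2-fold lower, 2 at least 2-fold higher and a median of -1.33. HSPA8, the constitutive HSP70, had 5463, 5496 and 5599 CPM in MDA-MB-231 and 929.8, 921 and 966 CPM in HCC1937 (log2 fold change -2.56 ± 0.03 SE, adjusted p = 2.99e-29). HSP90AA1 stood at 5075 ± 70.0 against 1676 ± 39.2 CPM and the co-chaperone DNAJB1 at 2112 ± 51.0 against 270.4 ± 8.60 CPM. HSPA6, an HSP70 that is usually read only under stress, stood at 92.6 ± 1.11 CPM in MDA-MB-231 and had 6 reads in HCC1937. HSF1, the factor that induces these genes, was higher in HCC1937 (139 ± 1.32 against 287 ± 12.6 CPM). HSPA1A and HSPA1B are near-identical copies that the counting may have split, and their values went opposite ways (8.81 ± 1.78 against 289 ± 12.8 CPM and 5058 ± 176 against 217 ± 6.04 CPM), so neither is read alone.

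Genes often used as references were not all even. Of 15, 11 were within 2-fold, 2 were at least 2-fold higher in HCC1937 and 2 at least 2-fold lower. The higher ones were ACTB, at 2693 ± 74.3 against 5587 ± 104.7 CPM, and the transferrin receptor TFRC, at 270.1 ± 6.31 against 849 ± 33.9 CPM. GAPDH, which is not one of the 15, stood at 6641 ± 246 against 4864 ± 110.2 CPM. Cytosolic ribosomal protein genes were slightly lower in HCC1937, with 27 of 35 called lower, 5 of them at 2-fold or more, and a median of -0.47. RPL8, on chromosome 8, was higher (2038 ± 93.5 against 3965 ± 178 CPM). All 24 proteasome genes were within 2-fold.

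Differences between the lines included many genes read in one line and not in the other. Beside the 145 genes silent in MDA-MB-231 (at most 3 reads, and at least 10 CPM in HCC1937), of which 87 had 0 reads, 52 were silent in HCC1937, of which 12 had 0 reads. Per kilobase of transcript the highest of the first kind after KRT13 was FXYD3, a regulator of the sodium pump, at 221 CPM per kilobase in HCC1937. The mucin MUC16, which carries the CA125 antigen, had 0 reads in MDA-MB-231 and 619, 778 and 587 CPM in HCC1937 (at least 11450.0-fold higher). SULF2, a sulfatase that edits heparan sulfate (at least 11070.0-fold), the adhesion protein CEACAM6 (at least 5090.0-fold), the glutamate transporter SLC1A6 (at least 5803-fold) and the guanine deaminase GDA (at least 2790.0-fold) had 0 reads there as well. Among genes silent in HCC1937 were the cyclin CCNA1, with 26.9 ± 1.42 CPM in MDA-MB-231 and 2 reads in HCC1937, MAN1A1, a mannosidase of the Golgi, with 48.2 ± 0.737 CPM and 3 reads, and the nucleotide reductase GMPR, with 14.3 ± 1.98 CPM and 3 reads. RADX, a regulator of replication forks, stood at 22.2 ± 0.771 CPM in MDA-MB-231 and had 0 reads in HCC1937. The ectonucleotidase ENPP1 stood at 29.4 ± 0.876 CPM in MDA-MB-231 and had 1 read in HCC1937.

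Some silent genes lay side by side. Runs of at least 3 neighbouring genes with at most 3 reads each in one line, of which at least 3 reached 1 CPM in the other, numbered 13 in MDA-MB-231 (64 genes reaching 1 CPM) and 12 in HCC1937 (48 genes). The remaining genes of these runs were under 1 CPM in both lines, and no expected number of runs was worked out. The HOXA cluster on chromosome 7 had 3 reads in all in MDA-MB-231 over 12 genes, of which 11 reached 1 CPM in HCC1937. HOXA genes set position along the body axis in development. HOXA10 was the highest of them, with 2 reads in MDA-MB-231 and 55.0, 57.8 and 59.2 CPM in HCC1937. Over all 29 tested HOX genes 20 were at least 2-fold higher in HCC1937 (69.0%) and 7 lower (24.1%). Of the 29, 13 had 0 reads in 1 line, so they passed the filter only through the other and had to differ. These shares describe what was read. HOXB9 ran the other way, with 40.4 ± 2.43 against 0.445 ± 0.129 CPM, and HOXD1 and HOXB8 had 0 reads in HCC1937, so no single direction held for the family.

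The kallikrein genes on chromosome 19, secreted serine proteases of epithelia, formed a run of 14 genes from 50825289 to 51084210 with 3 reads in all in MDA-MB-231, and 7 of them reached 1 CPM in HCC1937. KLK10 had 0 reads in MDA-MB-231 and 463, 444 and 448 CPM in HCC1937 (at least 7755-fold higher), and KLK5 311, 298 and 311 CPM (at least 5265-fold higher). KLK6 had 1 read in MDA-MB-231 and 268 ± 5.44 CPM in HCC1937. The epidermal differentiation genes of chromosome 1 formed a run of 46 genes, of which 8 reached 1 CPM in HCC1937. They include S100A9, a subunit of calprotectin, with 2 reads in MDA-MB-231 and 116 ± 4.62 CPM in HCC1937. In the list of S100 and epithelial defence genes 20 of 28 tested were at least 2-fold higher in HCC1937 (71.4%) and 2 lower, with a median of 4.83 (4.50 with genes at their bound). Of the 28, 7 had 0 reads in 1 line and so had to differ. Lipocalin, LCN2, stood at 1.53 ± 0.621 against 496 ± 5.24 CPM and the protease inhibitor SLPI at 6.54 ± 0.590 against 239 ± 8.08 CPM.

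In HCC1937 7 of the 12 runs were clusters of zinc finger genes on chromosome 19, mostly factors with a KRAB repressor domain. One such run of 6 genes between 36817428 and 37172695 (ZNF790, ZNF345, ZNF829, ZNF568, ZNF420 and ZNF585A) had 7 reads in all in HCC1937. ZNF83 stood at 31.1 ± 2.16 CPM in MDA-MB-231 with 1 read in HCC1937, and ZNF160 at 33.9 ± 1.95 CPM with 2 reads. Counted after these values were seen, 102 of 229 tested zinc finger genes on chromosome 19 were at least 2-fold lower in HCC1937 (44.5%) and 45 higher (19.7%), with a median of -0.66. On other chromosomes 51 of 256 were lower (19.9%) and 75 higher (29.3%), with a median of 0.18, and of the 792 other genes of chromosome 19 108 were lower (13.6%). At most 3 reads in HCC1937 were found for 61 of the 229, against 2 in MDA-MB-231. Members of this family share sequence, and reads may be split among them.

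Cancer-testis antigens, which are normally read in germ cells, were seen in MDA-MB-231. All 9 tested members of the list were at least 2-fold lower in HCC1937, with a median of -7.25, and 17 of the 26 members in the table were too low to test. A member that passed the filter only through MDA-MB-231 had to be lower in HCC1937. The count of 9 is therefore a description of what was read and not support for a difference of the family. CSAG1 had 16.2, 13.4 and 15.6 CPM in MDA-MB-231 and 0.130, 0.148 and 0 CPM in HCC1937 (log2 fold change -7.25 ± 0.28 SE, adjusted p = 7.60e-19). The MAGEA, XAGE1 and SPANX genes are near-identical copies, so their single values are uncertain, with MAGEA3 at 39.8 ± 3.72 against 0.176 ± 0.0891 CPM.

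By chromosome, shares departed from the whole most on chromosomes 5 and 18, where 42.9% and 45.1% of tested genes were at least 2-fold lower in HCC1937, with medians of -0.80 and -0.75. Chromosomes 12 and 10 had medians of -0.57 and -0.47, and the X chromosome -0.27. Chromosomes 21 and 22 had medians of 0.63 and 0.61, with 32.3% and 36.8% of genes at least 2-fold higher. In 264 windows of 50 neighbouring tested genes the median log2 fold change ran from -1.10 at the 5th to 0.93 at the 95th percentile. The lowest window, from KLK5 to ZNF813 on chromosome 19, had a median of -6.23 and held 10 genes at least 2-fold higher and 31 lower. The highest, from FAM20C to USP42 on chromosome 7, had a median of 1.73, and the window from ARC to SCX on chromosome 8 had 1.68 with 37 of 50 genes at least 2-fold higher. Copy number was not measured here.

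**Figure D5:**
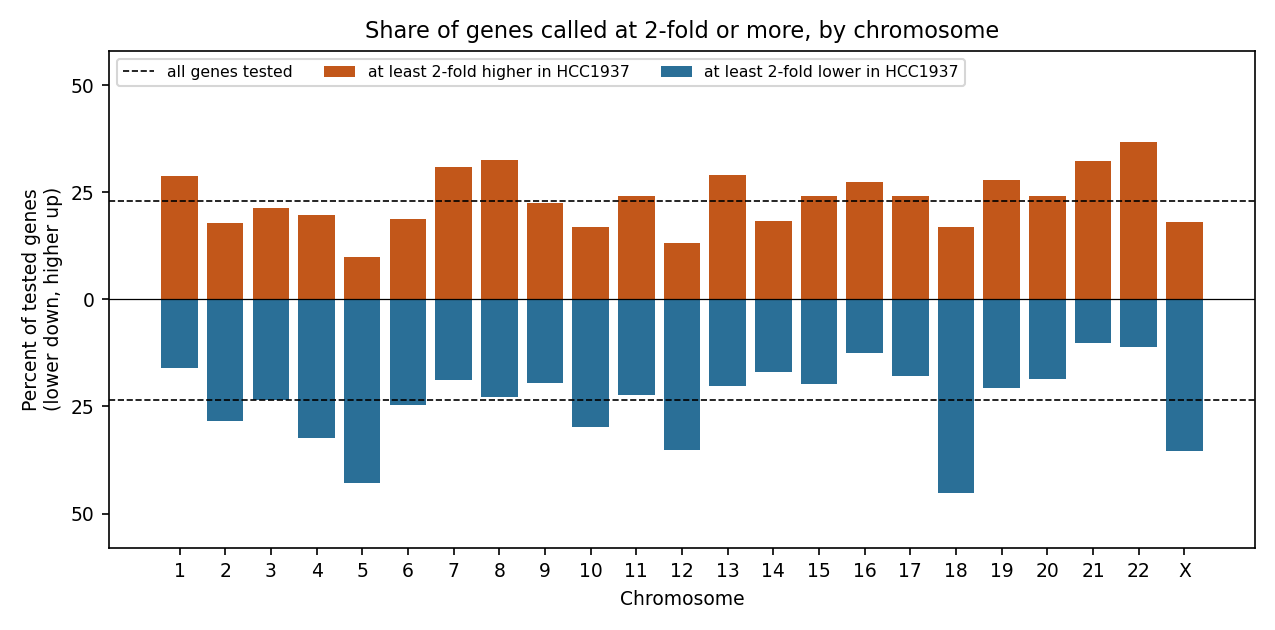
Share of tested genes on each chromosome that were at least 2-fold higher (orange, up) or lower (blue, down) in HCC1937, in percent of the genes tested there; dashed lines mark 23% and 23.4% over all genes. Chromosomes 5 and 18 have the largest shares of lower genes, 42.9% and 45.1%, and chromosome 22 the largest share of higher genes, 36.8%.

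Markers of other cell types were looked at for both lines. Of 15 leukocyte markers 4 were tested, and the pan-leukocyte gene PTPRC had 1 read in MDA-MB-231 and 27 in HCC1937. CD68, a lysosomal glycoprotein also read outside macrophages, stood at 356 ± 10.5 against 70.7 ± 1.33 CPM, and CD8A had 8.71 ± 0.286 CPM in MDA-MB-231 and 0 reads in HCC1937. Among 9 fibroblast markers DCN and POSTN had 0 reads in both lines, COL1A2 had 2 and 0 reads, and COL1A1 stood at 24.7 ± 1.97 against 21.1 ± 1.19 CPM, a difference that was no longer called without E1 or without E27 (log2 fold change -0.22 ± 0.08 SE, adjusted p = 0.0121 with all libraries, -0.18 and -0.19 without them). LUM had 1 read in MDA-MB-231 and 12.6 ± 0.386 CPM in HCC1937. Of 8 endothelial markers 4 were tested; EMCN and ERG had 0 reads in both lines, and CDH5 had 0 reads in MDA-MB-231 and 11.1 ± 0.759 CPM in HCC1937. Most defining markers of these other cell types were thus at or near 0 in both lines, with CDH5, LUM, PECAM1 (1.08 ± 0.241 against 14.3 ± 0.825 CPM), CD8A, CD68 and COL1A1 among the exceptions.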

How the data were processed

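RNA was captured on poly-T beads and libraries were made with a stranded kit, per the labels' protocols. Per the submitters' processing notes, reads were checked with FastQC 0.12.1, trimmed with fastp 0.23.4 and quantified with Salmon 1.10.3 on GRCh38; no source used here gives the annotation release or the step from transcripts to genes. The deposited table holds the authors' expected counts per gene, with no scaling for depth. Of the control values 56.2% were not whole, and all were rounded, moving none by more than 0.5. One of 19517 genes had no symbol and no reads and was left out.

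Samples were grouped by their titles; the cell line tag of the labels conflicts with these, since its number counts upward from sample to sample within each line. Counts of the 6 controls were fitted in R 4.3.3 with edgeR 4.0.16: filterByExpr, TMM and the quasi-likelihood F test, with Benjamini-Hochberg adjustment over 13834 genes. The biological coefficient of variation was 0.0422. Alternatives changed scaling, filter, test, libraries and a length and GC offset (mgcv 1.9.3), with DESeq2 1.42.0 and limma 3.58.1. The script was tested on simulated data. Length and GC come from the longest coding transcript in GENCODE 29, and positions and promoters from RefSeq on GRCh38.p14.

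Genes named are the line markers, the title genes, the 12 largest differences per direction among called genes with at least 20 CPM, the 10 highest per length per direction among genes silent in the other line, members of neighbouring silent runs, and of each list up to 6 with the smallest p. Other list members shown as contrasts, neighbours of these loci and cell type markers were chosen after their values were seen. The members and the 48 lists were chosen with earlier results of these data known, so counts over lists are descriptions without a test. Some genes of these rules are not reported here.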

Additional observations from a re-analysis of the deposited data

How the results depend on the processing

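Over 14 alternatives, and with edgeR's glmTreat for the 2-fold counts alone, counts of called genes stayed within 1.5 times of those reported. Higher calls ran from 5466 (all 12 libraries in 1 fit) to 6534 (library totals only) and lower calls from 5181 to 6558, and at 2-fold or more from 2797 to 3532 and from 2889 to 3669, the lowest when glmTreat tested against 2-fold, which was added after the data were seen. With the length and GC offset 2 called splicing regulators changed sign, PTBP1 from 0.13 to -0.10 and QKI from -0.15 to 0.046. ROCK1, which was not called, changed sign as well. The cause was not tested. Over all alternatives 1 value of a gene without a call in the main fit was called with the opposite sign. Of the genes named, PIK3CA and QKI lost their call with the offset; PTBP1, RBFOX2, QKI, COL1A1, DSG2, EGFR, FASN, SCD, FOXC1 and GAPDH in the fit to all 12 libraries; and COL1A1 and QKI with library totals only. COL1A1 also lost it without E1 and without E27. KRT86 gained one with library totals only, without E2 and without E27. No paired analysis was possible because the libraries of the lines share no replicate numbers. Low genes limit the lists: a member that passed the filter only through 1 line had to differ.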
